A study of Mus musculus with 4 samples.

Results

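Glucose enters a smooth muscle cell through membrane transporters, is trapped by phosphorylation and is then broken down to pyruvate and lactate. The 10 genes described here are the main glucose transporter gene of such cells, Slc2a1, and 9 genes for enzymes of that route: Hk1, Hk2, Pfkl, Pfkp, Pfkfb3, Aldoa, Gapdh, Pkm and Ldha. They were taken as every probe whose RefSeq accession belongs to one of these symbols, which gave 21 probes for 10 of 10 genes, out of 55679 probes and 21367 named genes on the array. Of the 10 genes, 10 had a brightest probe well above background on all 4 arrays.

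The study profiled cultured aortic vascular smooth muscle cells of C57BL/6J mice on Agilent mouse arrays with 1 colour. One line was wild type (WT) and the other lacked LAMP-2A (LAMP-2AKO, here L2AKO), the lysosomal receptor of chaperone-mediated autophagy. Each line came from 5 aortas, was used between passages 12 and 16, and spent 24 h in 5% lipoprotein-deficient serum as control or with LDL at 150 µg/ml cholesterol plus 0.1 U/ml bovine lipoprotein lipase. The labels do not say if lipase was added to control cells. Every group is therefore 1 array of RNA pooled from a triplicate, and a genotype is 1 line, so no difference has a replicate error and no test between groups was possible.

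Glycolysis has several control points. Hexokinases trap glucose, phosphofructokinase commits it, and the PFKFB enzymes make or remove the fructose 2,6-bisphosphate that stimulates phosphofructokinase. Lactate dehydrogenase turns pyruvate into lactate and restores the NAD+ that Gapdh consumes. Transcription of several of these genes is known to be driven by the hypoxia-inducible factor HIF-1 and by MYC, and vascular smooth muscle cells in culture are known to make much lactate even with oxygen present.

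Values are log2 of the processed signal minus the 75th percentile of the same array. That percentile was 319 to 434 signal units, between 47.2% and 52.0% of probes were well above background, and no spot was saturated. Spots that were printed repeatedly varied with a median SD of 0.045 to 0.054 (log2) within an array, which gives an SD of 0.076 for a difference between arrays and covers technical spread only. Other probes of the same gene differed from the brightest by a median of 0.12 to 0.28 (log2) in these comparisons, over 3877 probe pairs. The L2AKO LDL array lay on another slide than the other 3 arrays, and 7 of 8 spike-in controls fell outside the range of those 3 there. From the mean of those 3 arrays the 8 spike-ins deviated by -1.19 to 0.63, and among those 3 a spike-in ranged by up to 0.50. For every value that uses the L2AKO LDL array, slide and group cannot be told apart.

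The labelled cell type was checked against smooth muscle markers. Of 10 markers 7 were well above background on all arrays, among them Acta2 (6.55 to 7.39) and Tagln (3.45 to 4.91), and 3, Myh11, Lmod1 and Des, on none. The lines differed in these markers. Without LDL 3 of the 7 were at least 1.5-fold higher in L2AKO, Tagln (1.27), Cnn1 (1.11) and Myl9 (0.795). Another 3 were lower, Acta2 (-0.75), Smtn (-0.995) and Actg2 (-1.73). With LDL the counts were also 3 higher and 3 lower. The part of these differences in the values of the 10 genes was not tested. The targeted gene Lamp2 was 1.38 lower in L2AKO without LDL on one probe (-1.38) and 0.04 higher on another. It is not known here which of these probes lies in the deleted part, so they check the genotype only in part.

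The promoters of the 3 members that differed most over the arrays, Slc2a1, Hk2 and Ldha, are shown because the letters ACGTG and GCGTG, the core bound by HIF-1, recur in them. Each line is the 250 bases before the annotated start, 5′ to 3′ on the gene's own strand, from RefSeq (GRCm38.p6), and capitals mark each ACGTG or GCGTG on either strand, so that the other strand reads as CACGT or CACGC. Slc2a1 lies at chr4:119108495-119108744 (plus strand), Hk2 at chr6:82774455-82774704 (minus strand) and the first of 2 Ldha starts at chr7:46845554-46845803 (plus strand).
Slc2a1: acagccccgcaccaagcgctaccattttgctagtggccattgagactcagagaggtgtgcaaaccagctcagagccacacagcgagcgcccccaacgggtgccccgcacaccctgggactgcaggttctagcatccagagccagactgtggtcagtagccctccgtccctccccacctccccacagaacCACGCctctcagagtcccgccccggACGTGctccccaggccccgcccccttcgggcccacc
Hk2: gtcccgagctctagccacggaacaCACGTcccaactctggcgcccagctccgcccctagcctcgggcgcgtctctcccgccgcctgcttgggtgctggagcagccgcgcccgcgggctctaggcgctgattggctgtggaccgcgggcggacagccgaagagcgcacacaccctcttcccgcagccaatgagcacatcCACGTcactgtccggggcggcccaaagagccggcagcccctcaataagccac
Ldha: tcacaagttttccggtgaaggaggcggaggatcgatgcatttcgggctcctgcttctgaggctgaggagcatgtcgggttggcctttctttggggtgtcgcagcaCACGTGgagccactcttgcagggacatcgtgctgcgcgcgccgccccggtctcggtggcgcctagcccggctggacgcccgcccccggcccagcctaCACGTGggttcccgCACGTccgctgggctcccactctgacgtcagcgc

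In Slc2a1 the marked letters begin 61 and 36 bases before the start, and in Hk2 226 and 52 bases before it. Ldha has 3 marked stretches, and those at 145 and 48 bases before the start read CACGTG, an E-box of the kind bound by MYC, which holds ACGTG on both strands. Of the 16 start sites listed for the 10 members, 13 hold ACGTG or GCGTG, against 38.6% of 32851 promoter windows of this length and 62.4% of the 6141 with 60% to 70% GC. Overlapping windows of Aldoa hold the same site, 126 and 202 bases before their starts, so it counts more than once in the 13. The members' own windows had 49.6% to 69.6% GC. CACGTG was in 2 of the 16 windows (6.02% of all windows) and the sterol element TCACNCCAC in 1 of them, a window of Pkm (1.05% of all windows). These matches describe letters and show no binding.

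**Figure D1:**
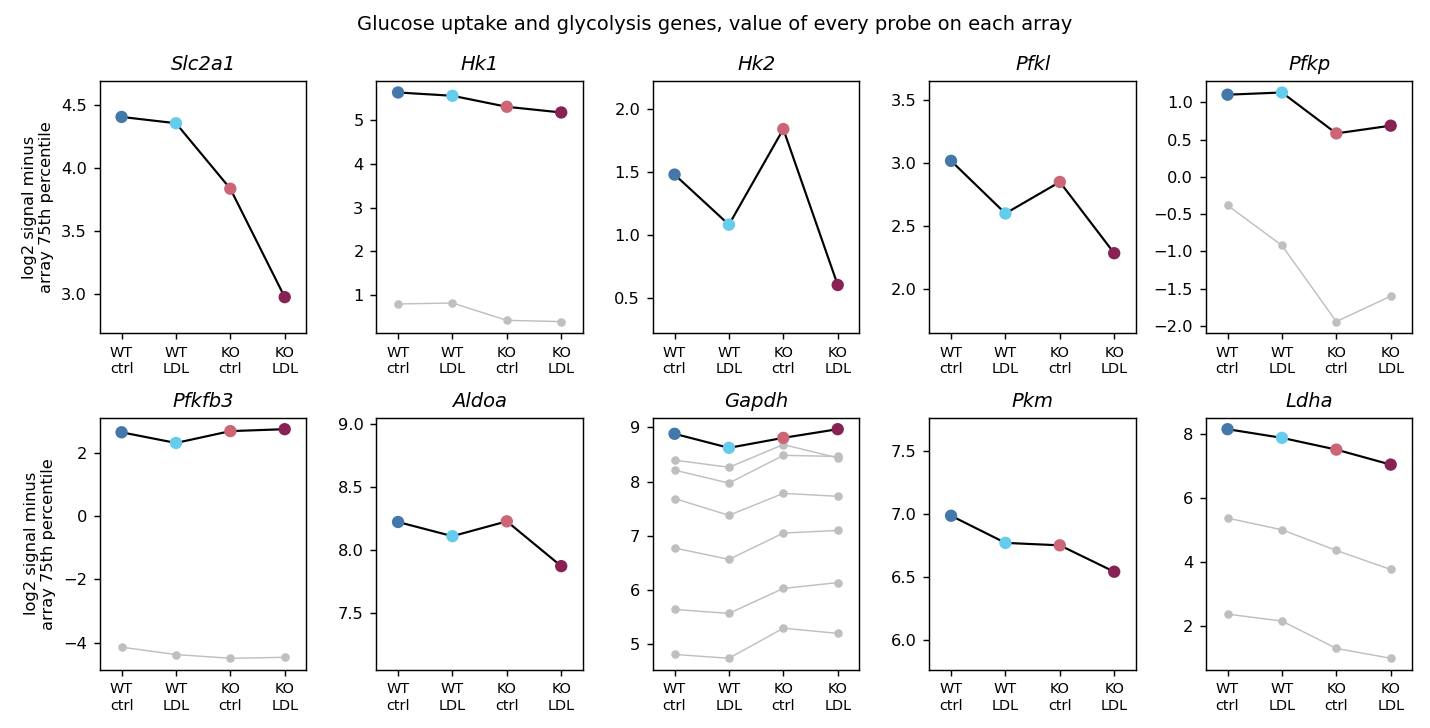
Normalised log2 value (vertical axis, log2 signal minus the array's 75th percentile) of every probe of the 10 genes on the 4 arrays, with KO for L2AKO and ctrl for control; coloured points joined in black are the brightest probe and grey points the other probes, and each axis spans at least 2 log2 units. Slc2a1 goes from 4.40 in WT control to 2.97 in L2AKO LDL, and the 3 Ldha probes run in parallel.

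Slc2a1 encodes GLUT1, the transporter that supplies most basal glucose uptake. Its single probe read 4.40 (control) and 4.35 (LDL) in WT and 3.83 (control) and 2.97 (LDL) in L2AKO. The WT arrays lay within the spread of repeated spots of each other, L2AKO control was lower and L2AKO LDL was the lowest. With LDL, Slc2a1 differed by -0.05 in WT and by -0.86 (1.82-fold lower) in L2AKO, and the genotypes differed by -0.57 without LDL and by -1.38 (2.60-fold lower in L2AKO) with it. In the LDL response of L2AKO 1.91% of 13008 measured genes were lower than Slc2a1. The difference of the LDL responses was -0.81, and it rests on the L2AKO LDL array.

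The hexokinases differed from each other. Hk1, the broadly expressed form, read 5.62, 5.55, 5.30 and 5.17 on the arrays of WT control, WT LDL, L2AKO control and L2AKO LDL. Its LDL differences were -0.07 in WT and -0.13 in L2AKO, within 2 SDs of repeated spots (0.15), whereas it was 0.33 lower in L2AKO without LDL (-0.33) and its second probe gave -0.37. Hk2, the inducible form that binds mitochondria, read 1.48, 1.08, 1.84 and 0.60 in the same order. On Hk2 both LDL arrays were below both control arrays, and the L2AKO line held both the highest and the lowest value.

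For Hk2 the LDL difference was -0.40 in WT (1.32-fold lower) and -1.24 in L2AKO (2.36-fold lower), the largest of any member in either line. Only 0.761% of measured genes were lower than Hk2 in the L2AKO response, against 5.41% in WT. The genotypes differed by 0.36 without LDL and by -0.48 with it. Hk2 had 1 probe, so no second probe stands beside these values.

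Phosphofructokinase, the committing step, is a tetramer of the liver-type (Pfkl), platelet-type (Pfkp) and muscle-type subunits. Pfkl read 3.02 (control) and 2.60 (LDL) in WT and 2.85 (control) and 2.28 (LDL) in L2AKO. In both lines the LDL array was the lower one, by 1.34-fold in WT (-0.42) and 1.48-fold in L2AKO (-0.57), and in WT this was the largest LDL difference among the members' brightest probes. Pfkp read 1.10, 1.13, 0.58 and 0.69 in the same order, so it separated by line and not by LDL. It was lower in L2AKO by 1.43-fold without LDL (-0.52) and 1.36-fold with LDL (-0.45).

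The second Pfkp probe, at -0.38, -0.92, -1.94 and -1.60, was also lower in L2AKO, by 1.56 without LDL (-1.56) and 0.68 with LDL (-0.68). With LDL in WT it differed by -0.54 where the brighter probe gave 0.03, so the Pfkp probes disagree on the LDL response. Pfkfb3 encodes the inducible enzyme that makes fructose 2,6-bisphosphate. Its brighter probe read 2.64, 2.30, 2.68 and 2.74, and WT LDL was the one low array. The LDL difference of Pfkfb3 was -0.34 in WT and 0.06 in L2AKO, and L2AKO was 0.43 higher than WT with LDL. Its other probe was below background in L2AKO control and gave -0.09 between genotypes with LDL.

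Aldoa and Pkm ranged over the arrays by 0.36 and 0.44. Aldoa, the aldolase of muscle and most tissues, read 8.23, 8.11, 8.23 and 7.88. Its WT control and L2AKO control values were alike (difference 0.01), and L2AKO LDL was the lowest, 0.36 below L2AKO control (-0.36). The LDL difference of Aldoa in L2AKO was -0.56 with quantile normalisation and -0.55 in the authors' deposited values. Pkm, the pyruvate kinase gene, read 6.99, 6.77, 6.75 and 6.54. Its LDL differences were -0.22 in WT and -0.21 in L2AKO and its genotype differences -0.23 both without and with LDL, each at most 1.18-fold. The Pkm probe was not assigned to the M1 or M2 isoform.

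Gapdh, which oxidises glyceraldehyde 3-phosphate, is often used as a reference gene and had 7 probes. Its brightest probe read 8.88 (control) and 8.62 (LDL) in WT and 8.80 (control) and 8.96 (LDL) in L2AKO. With LDL in WT the probes of Gapdh ranged from -0.31 to -0.07, all on the lower side, and in L2AKO from -0.25 to 0.16, on both sides of 0, with a mean over probes of -0.01. Between genotypes without LDL the brightest probe differed by -0.07, while the other 6 were higher in L2AKO by 0.10 to 0.48. With LDL all 7 were higher in L2AKO, by 0.17 to 0.57. Gapdh has many processed pseudogenes, and whether these probes also bind their transcripts was not tested.

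Ldha, the lactate dehydrogenase subunit that favours lactate, had 3 probes that ran in parallel. Its brightest probe read 8.15 (control) and 7.88 (LDL) in WT and 7.51 (control) and 7.04 (LDL) in L2AKO. The arrays stood in this order on every Ldha probe, with the L2AKO arrays below the WT arrays. Ldha was lower in L2AKO by 1.55-fold without LDL (-0.64) and by 1.78-fold with LDL (-0.83), and the other 2 probes gave -1.01 and -1.07, then -1.24 and -1.16. With LDL, Ldha differed by -0.27 in WT and -0.47 in L2AKO on the brightest probe, with -0.36 to -0.22 and -0.59 to -0.31 over all 3.

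Across the members, L2AKO LDL was the lowest array for 7 of 10 (Slc2a1, Hk1, Hk2, Pfkl, Aldoa, Pkm and Ldha), against 37.5% of genes measured on all arrays. WT control was the highest for 5 of 10, against 31.2% of those genes. On their brightest probes, Pfkfb3 and Gapdh were the members that were highest in L2AKO LDL, and both were lowest in WT LDL. Some other Gapdh probes were highest in L2AKO control, among them one at 8.68 there and 8.44 in L2AKO LDL.

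**Figure D2:**
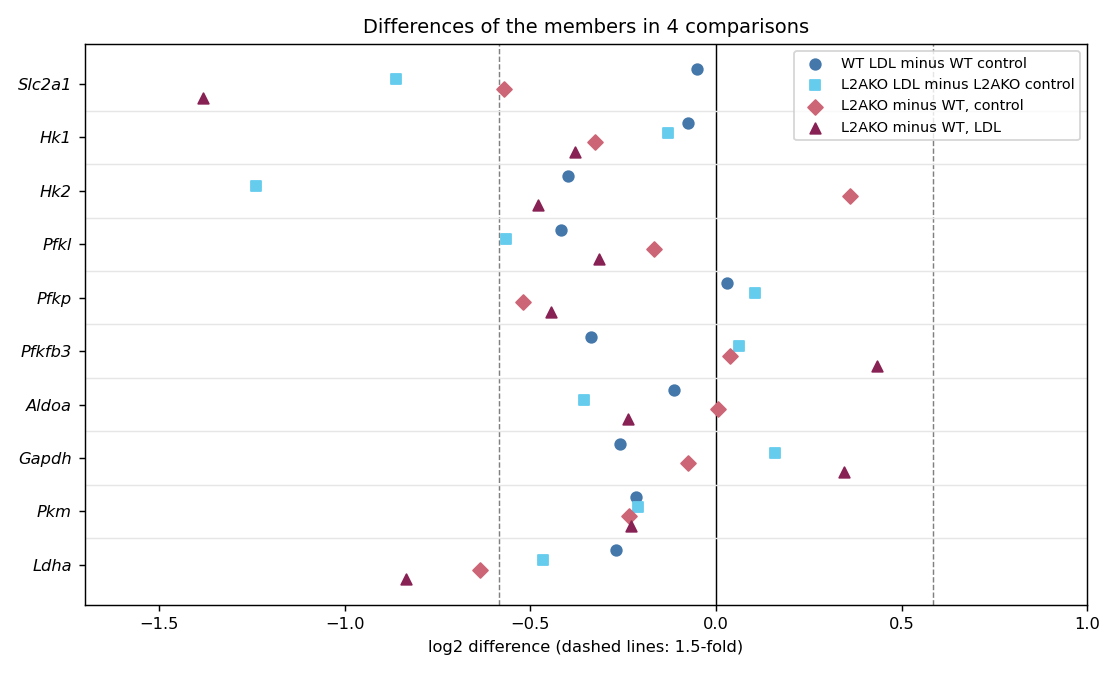
Log2 difference (horizontal axis) of the brightest probe of each of the 10 genes in 4 comparisons, with dashed lines at 1.5-fold in either direction; each group is 1 array, so there are no error bars. Hk2 and Slc2a1 with LDL in L2AKO, at -1.24 and -0.86, Slc2a1 and Ldha between genotypes with LDL, at -1.38 and -0.83, and Ldha between genotypes without LDL, at -0.64, lie beyond the lower line.

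The first comparison asked how WT cells answered LDL. It shares each of its arrays with a genotype comparison. None of the 10 members was 1.5-fold lower (2.46% of 12977 measured genes were) and none was 1.5-fold higher (1.25% of genes were). Of the members 9 of 10 lay below 0, where 60.7% of all genes did, with a median of -0.24 against -0.05 over all genes. The lowest were Pfkl (-0.42), Hk2 (-0.40) and Pfkfb3 (-0.34), while Slc2a1 (-0.05), Hk1 (-0.07) and Pfkp (0.03) lay near 0. With quantile normalisation 6 of 10 lay below 0, with a median of -0.09, and in the authors' deposited values 7 of 10, with a median of -0.07.

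The second comparison asked the same of L2AKO cells. Of the 10 members 2, Hk2 and Slc2a1, were at least 1.5-fold lower, against 4.55% of 13008 genes, and none was 1.5-fold higher, against 3.34%. The median was -0.28 against -0.08 over all genes, and 7 of 10 lay below 0 against 62.2%. Pfkl (-0.57) and Ldha (-0.47) came next, and Pfkp (0.10), Gapdh (0.16) and Pfkfb3 (0.06) were the 3 above 0. The calls of Hk2 and Slc2a1 held under all 8 other processing settings, from -1.24 to -1.09 for Hk2 and from -0.86 to -0.75 for Slc2a1. Each has 1 probe, above background on all arrays, so the settings for the filter on dim probes and the mean over probes could not move them.

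The responses of the lines share no array. Their difference was at least 1.5-fold for 2 of 10 members, Hk2 (-0.84) and Slc2a1 (-0.81), both more negative in L2AKO, against 3.99% of 12491 genes, and at least 1.5-fold on the positive side for none, against 4.77%. Gapdh (0.42) and Pfkfb3 (0.40) lay on the positive side, and for Pkm the difference was 0.01. Over the 7 Gapdh probes it ranged from -0.11 to 0.42, with a mean over probes of 0.17. Aldoa (-0.24) was a further member past 1.5-fold with quantile normalisation (-0.60), with normexp and in the authors' deposited values (both -0.62). These differences were not tested.

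The third comparison set the lines against each other without LDL, on 1 slide. Ldha was the 1 member at least 1.5-fold lower in L2AKO, against 16.6% of 12593 genes, and none was 1.5-fold higher, against 15.2%. With 1 of 10 members past this fold, the count says nothing particular about them. Ldha, at -0.64, lay close to the 1.5-fold line and inside it at -0.55 with median scaling, while the mean over its probes was -0.90. Slc2a1 (-0.57), Pfkp (-0.52) and Hk1 (-0.33) were lower by less, and Hk2 (0.36) was higher. The median of the members was -0.20 against -0.01 over all genes.

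With LDL, 2 of 10 members, Slc2a1 and Ldha, were at least 1.5-fold lower in L2AKO, against 20.5% of 12934 genes, and none was higher, against 16.9%, so the share of members lower was near that of all genes. The median was -0.35 against -0.05. Pfkfb3 was at 0.43, and at 0.63 with median scaling, a setting that moves the median of all genes by 0.20. Cell cycle genes were lower in L2AKO as well. All 11 measured members of a 12-gene proliferation list were at least 1.5-fold lower, with medians of -3.07 without and -2.70 with LDL, and their part in the values of the glycolysis genes was not tested. With LDL alone the medians of that list were -0.18 in WT and 0.18 in L2AKO.

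Marker genes of other cell types also differed between the lines. Of 9 epithelial and mesothelial markers 7 were above background on all arrays. The log2 of the summed linear levels of all 9 was 5.88 to 6.00 in WT and 4.30 to 4.53 in L2AKO. Sums of the other marker lists were formed in the same way, over every listed marker with a probe. A few bright probes carry such sums, and single markers went either way. Without LDL Cdh1 (-3.14) and Msln (-2.31) were lower in L2AKO, and Upk3b (1.17) was higher, as was Lrrn4 with LDL (4.31). Of 10 fibroblast markers 7 were above background on all arrays, with a sum of 8.57 to 8.76 in WT and 7.90 to 8.16 in L2AKO. Dcn (-1.69 without LDL) was the brightest of them in WT. In L2AKO it was Serpinf1, at 6.98 (control) and 6.91 (LDL), where Dcn read 6.92 and 6.39. Of the 8 measured without LDL, 4 were at least 1.5-fold higher in L2AKO, Serpinf1 (4.28), Pi16 (4.14), Clec3b (2.23) and Ly6a (1.04), and 3 lower, and Fap was above background in L2AKO alone. Macrophage markers summed to 5.04 to 5.69, with Ptprc and Adgre1 above background on none. Of 6 measured without LDL, 2 were at least 1.5-fold higher in L2AKO, Trem2 (3.39) and Cd68 (1.85), and 1 lower, Cd14 (-0.63). Itgam (-0.16) and C1qb (-0.27) also lay below 0, and Csf1r was at 0.52. Endothelial markers summed to 2.18 to 2.53 with Cdh5, Tek, Tie1, Emcn, Erg and Cldn5 above background on none. Kdr (2.07 to 2.45) and Vwf (-3.19 to -2.09) were above background on all arrays. Adipocyte markers summed to 0.41 to 1.04 in WT and 2.19 to 2.32 in L2AKO, with Adipoq, Plin1, Lep and Cidec above background on none and Fabp4 the 1 marker measured on all arrays. In such pooled RNA a smaller share of cells with a gene and less RNA per cell cannot be told apart, and the part of these markers in the results was not tested.

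The rest of the pathway was read from lists of neighbouring genes, whose counts stand against the shares of all genes lower and higher at 1.5-fold: 2.46% and 1.25% with LDL in WT, 4.55% and 3.34% with LDL in L2AKO, 16.6% and 15.2% between the lines without LDL, and 20.5% and 16.9% with LDL. Among 12 other glycolytic enzymes measured in both LDL comparisons, 11 lay below 0 in WT and 9 in L2AKO, with medians of -0.26 and -0.11, and 1 of 12 was at least 1.5-fold lower in each. This was Aldoc, the brain-type aldolase, at 3.18 (control) and 1.14 (LDL) in WT and 4.26 (control) and 3.23 (LDL) in L2AKO. Both LDL arrays of Aldoc were below their own control, by -2.03 in WT and -1.03 in L2AKO, while Aldoa differed by -0.11 and -0.36. Tpi1 (-0.45), Eno2 (-0.44) and Pgk1 (-0.36) followed in WT, and in L2AKO they were at -0.05, -0.35 and -0.15.

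Of the other glucose transporters and hexokinases, 5 of 9 were measured in the WT response and 6 of 9 in that of L2AKO. Slc2a6, a transporter of lysosomal membranes, was the 1 past 1.5-fold in each, at 0.15 (control) and -2.22 (LDL) in WT and -1.32 (control) and -4.44 (LDL) in L2AKO. The L2AKO LDL value of Slc2a6 was near the lowest value well above background on that array (-5.08). It differed with LDL by -2.37 in WT and by -3.11 in L2AKO, both larger than any member's difference. Slc2a8 and Slc2a10, by contrast, differed by at most 0.20 in any of these responses.

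**Figure D3:**
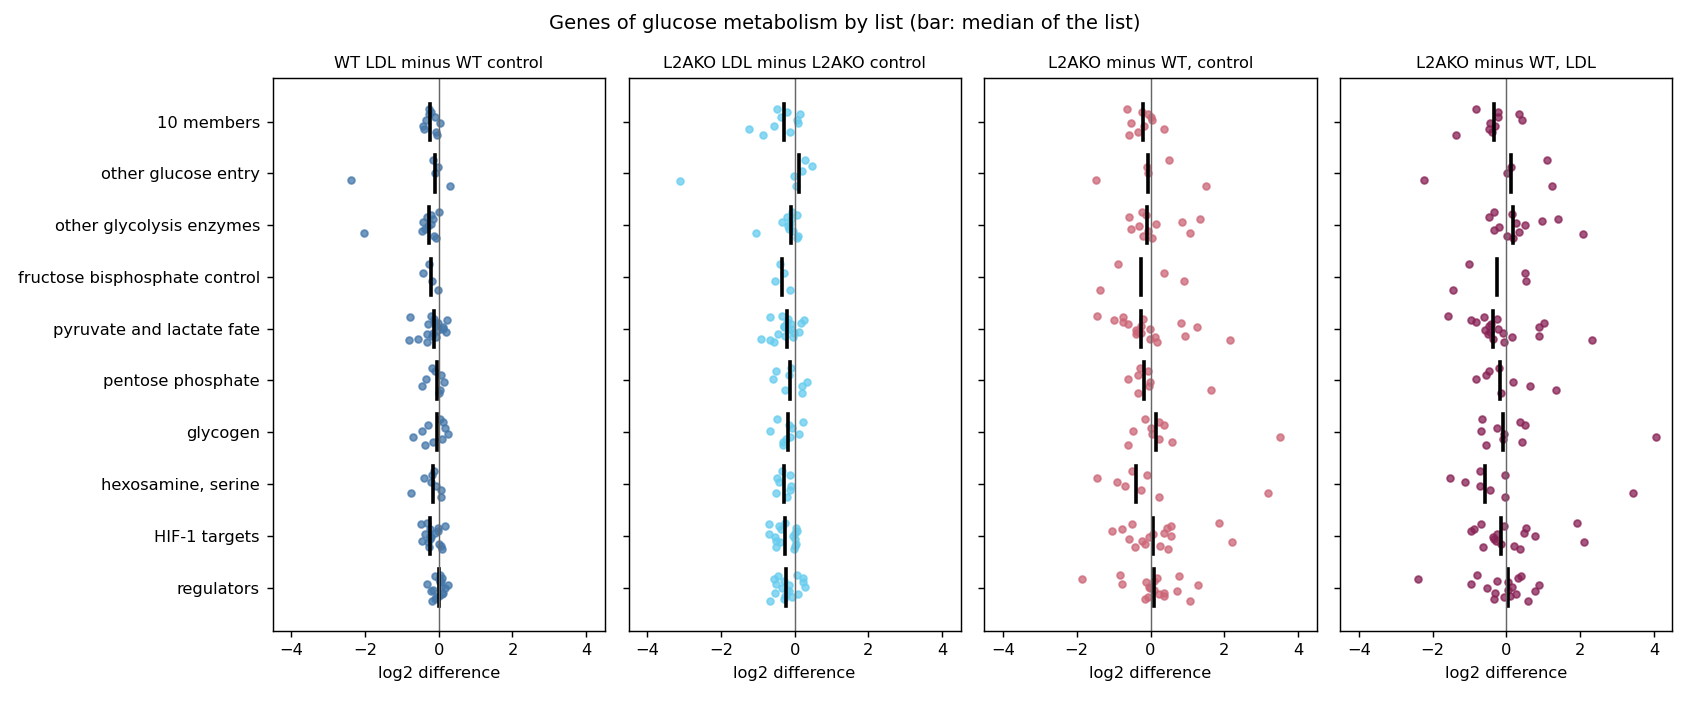
Log2 difference (horizontal axis) of each measured gene in 10 lists of glucose metabolism (rows) for 4 comparisons (panels), 1 point per gene and a black bar at the median of the list. Past 1 log2 unit in the LDL panels lie Slc2a6 (-2.37 and -3.11) and Aldoc (-2.03 and -1.03) in both lines and Hk2 (-1.24) in L2AKO, and the genotype panels are wide in both directions.

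Genes for the fate of pyruvate and lactate lay slightly below 0 with LDL. Of 19 genes 2 were at least 1.5-fold lower in WT, Slc16a3 (-0.81) and Pdp2 (-0.78), and 3 in L2AKO, Slc16a7 (-0.92), Slc16a3 (-0.66) and Pdp2 (-0.65), with none higher in either, against a lower share over all genes of 2.46% in WT and 4.55% in L2AKO. Slc16a7 was dim, at -3.39 (control) and -4.31 (LDL) in L2AKO, where the lowest values well above background were -4.33 and -5.08. Its other 2 probes were below background on every array. Slc16a3 encodes MCT4, the lactate exporter of glycolytic cells, and Pdp2 a phosphatase that activates pyruvate dehydrogenase. Slc16a3 read 1.04, 0.23, 3.21 and 2.55 on the arrays of WT control, WT LDL, L2AKO control and L2AKO LDL, so both L2AKO arrays were above both WT arrays. It was 2.16 higher in L2AKO without LDL and 2.32 higher with LDL, opposite in sign to Ldha.

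Between the genotypes without LDL, 4 of the 19 pyruvate and lactate genes were at least 1.5-fold higher in L2AKO and 5 lower, where 15.2% and 16.6% of all genes were. After Slc16a3 the largest were Pcx, the pyruvate carboxylase gene (-1.45), Dld, a pyruvate dehydrogenase subunit (1.27), and the pyruvate dehydrogenase kinase Pdk4 (-0.99). With LDL the counts were 4 and 4, with Pcx at -1.59, Pdk2 at 1.02 and Pdk4 at -0.96. Among genes that set fructose bisphosphate levels, Pfkfb1 (-1.36) and Tigar (-0.88) were lower and Pfkfb2 (0.90) was higher in L2AKO of 4 measured genes without LDL. None of these 4 was past 1.5-fold with LDL in either line, and all 4 lay below 0 in both.

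The branches that leave glycolysis held 3 genes past 1.5-fold with LDL. The lower share of all genes was 2.46% in WT and 4.55% in L2AKO. No pentose phosphate gene of 8 was past 1.5-fold in either line, 1 of 10 glycogen genes was lower in each, Pygl in WT (-0.68) and Pygm in L2AKO (-0.66), and of 8 hexosamine and serine genes 1 was lower in WT, Gfpt2 (-0.74), and none in L2AKO. Between the lines without LDL the genes went either way, where 15.2% of all genes were higher in L2AKO and 16.6% lower. Of 8 pentose phosphate genes 1 was higher and 1 lower, Rpia (-0.60). Of 10 glycogen genes 2 were higher, with Gyg at 0.59, and 1 lower, Gys1 (-0.61). Of 8 hexosamine and serine genes 1 was higher and 3 lower, with a median of -0.39. The 3 largest positive differences were those of Pygl, Gfpt2 and H6pd. Pygl, the liver glycogen phosphorylase, was 3.50 higher in L2AKO, Gfpt2, which starts the hexosamine branch, 3.19 higher, and H6pd, the pentose phosphate enzyme of the endoplasmic reticulum, 1.64 higher. Phgdh, the first enzyme of serine synthesis from a glycolytic intermediate, was lower in L2AKO without LDL (-1.45), with its second probe at -1.47. Uap1 (-0.92) and Pgm3 (-0.68) of the hexosamine branch were also lower on their brightest probes.

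Of 17 measured HIF-1 targets outside glycolysis, 13 lay below 0 with LDL in WT (median -0.23), where 60.7% of all genes did (median -0.05). In L2AKO 11 of 17 lay below 0 (median -0.26), near the 62.2% of all genes (median -0.08). None was past 1.5-fold in WT, and 2 were lower in L2AKO, Higd1a and P4ha2, both at -0.69. Without LDL 2 were higher in L2AKO, the oxygen sensor Egln3 (2.20) and the collagen crosslinker Lox (1.85), and 2 lower, Car12 (-1.03) and Ddit4 (-0.76), with a median of 0.07. With LDL 3 were higher and 4 lower. Hif1a itself read 2.88 (control) and 2.72 (LDL) in WT and 3.96 (control) and 3.29 (LDL) in L2AKO. It was therefore highest in L2AKO control, as were 28.5% of genes measured on all arrays. Among the members Hk2 and Aldoa were highest there, and 5, with Slc2a1 and Ldha among them, in WT control. The LDL difference of Hif1a was -0.17 in WT and -0.67 in L2AKO, and its part in the values of the members was not tested.

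Among 18 regulators Hif1a was the 1 past 1.5-fold with LDL in L2AKO, and none was in WT. Without LDL 4 were higher in L2AKO and 3 lower. Txnip, which restrains glucose uptake, was 1.27 higher, and Prkaa2, a catalytic subunit of the energy sensor AMPK, differed by -1.85 and Esrra by -0.83. Myc read 1.74, 1.85, 2.10 and 1.56, with differences of 0.11 and -0.54 with LDL in WT and L2AKO.

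**Figure D4:**
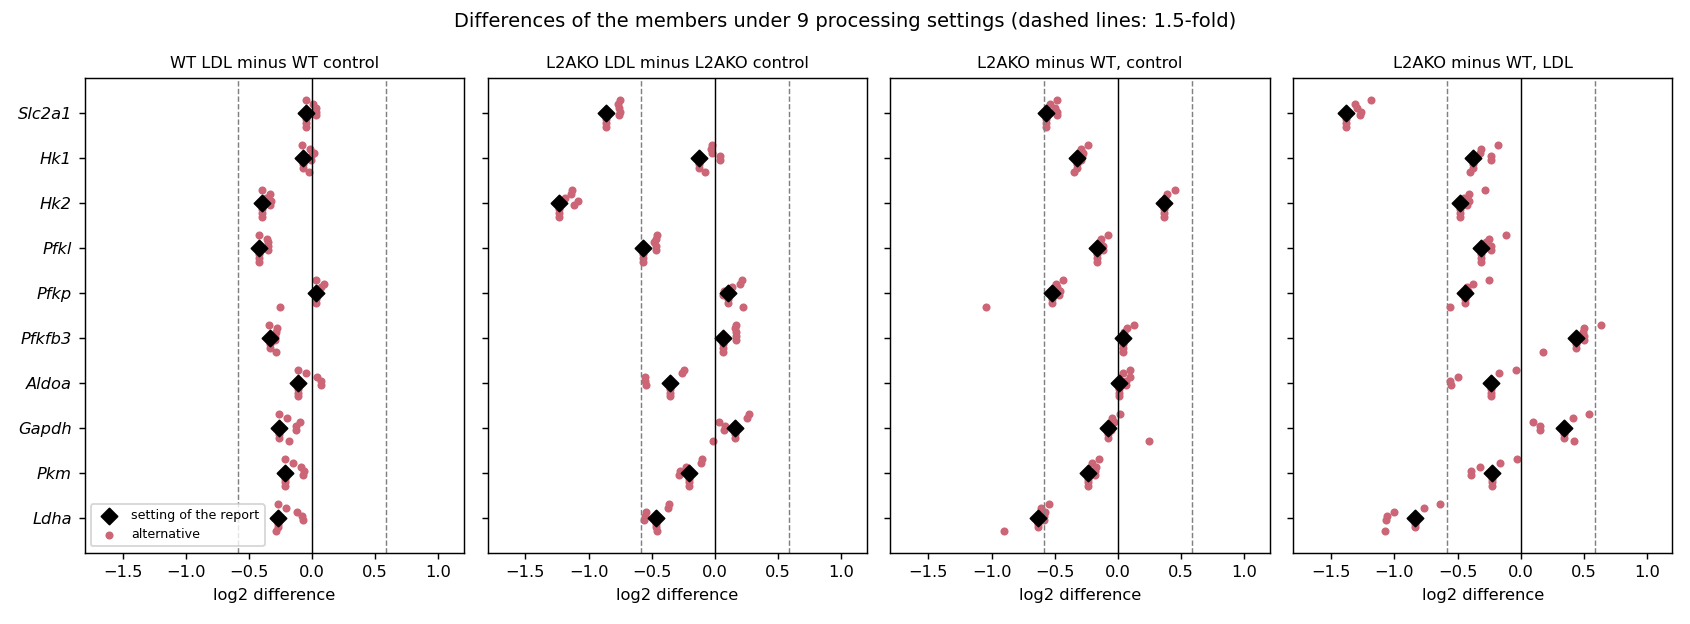
Log2 difference (horizontal axis) of the 10 genes in 4 comparisons (panels) under 9 processing settings, black diamonds for the setting of the report and red points for the 8 alternatives, dashed lines at 1.5-fold. Hk2 and Slc2a1 with LDL in L2AKO stay beyond the line in all 9 settings, whereas Ldha without LDL lies beyond it in 5 of 9. The settings for the filter on dim probes, and for Hk2 and Slc2a1 the mean over probes, cannot move these values.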

How the data were processed

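The deposited scanner files list 62976 spots an array, whose processed signal is a linear intensity from Agilent Feature Extraction (version 10.7.3.1, per the file headers). A second deposited table gives the authors' own intensity values. RMA and oligo appear in the submitters' processing notes with no version, its columns have medians of 57.4 to 57.6 and a shared maximum, and its exact scaling is not given. There the members' medians with LDL were -0.07 in WT and -0.38 in L2AKO. With normexp and quantile normalisation they were -0.07 and -0.37, so these 2 alternatives lie close together.

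Spots of controls and outlier spots were dropped, repeated spots averaged as log2, and each array's 75th percentile subtracted. Accessions in a GRCm38.p6 RefSeq table named 28330 of 55679 probes. The probe with the highest mean stood for its gene, and a gene counted in a comparison only where that probe exceeded background on every array used. Genes were counted at 1.5-fold, as 1 array per group allows no test. Named were all members with every probe, up to the 4 genes furthest past 1.5-fold from each pathway list, and Lamp2. Other genes were named after their values were seen. One gene of the lists is not reported here. The steps were tested on simulated data, and 8 alternatives were run. Members and lists were chosen with earlier results of these data known. Software was Python 3.11.15, and for normexp (on the median spot signal, offset 50) R 4.3.3 and limma 3.58.1.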

Additional observations from a re-analysis of the deposited data

Results flagged for a closer look

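For Hk2 the genotype difference was 0.36 without LDL and -0.48 with LDL, and for Gapdh the LDL difference was -0.26 in WT and 0.16 in L2AKO on the brightest probe. Both pairs have opposite signs and each value lies beyond 0.15, which is 2 SDs of a difference between repeated spots. That SD leaves out spread between arrays. The differences were not tested, and each pair holds the L2AKO LDL array of the other slide. Of the 7 Gapdh probes, those of the LDL comparison in L2AKO lay on both sides of 0, with a mean of -0.01.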

How the results depend on the processing

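Under 8 alternatives no member past 1.5-fold changed sign, but 9 of 50 member values, all under 1.5-fold, lay on both sides of 0. With LDL in WT these were Slc2a1 (-0.05 to 0.03), Hk1 (-0.08 to 0.02), Pfkp (-0.25 to 0.09) and Aldoa (-0.11 to 0.07), and in L2AKO Hk1 (-0.13 to 0.04) and Gapdh (-0.01 to 0.27). The others were Gapdh between genotypes without LDL (-0.07 to 0.25) and the response differences of Hk1 (-0.05 to 0.05) and Pkm (-0.21 to 0.11). Hk2 and Slc2a1 with LDL in L2AKO, Slc2a1 and Ldha between genotypes with LDL, and the response differences of Hk2 and Slc2a1 stayed past 1.5-fold in 9 of 9 settings. Settings that change the filter on dim probes cannot move a member's brightest probe, and the mean over probes cannot move Hk2 or Slc2a1. Without LDL the 1 member lower in L2AKO became 0 with median scaling, quantile normalisation, normexp and the deposited values, and 2 with the mean over probes. With LDL and median scaling 1 member, Pfkfb3, was higher. The percentages of all genes lower and higher with LDL in WT were 1.29 and 0.339 with normexp, 1.47 and 0.462 in the deposited values, and 6.80 and 4.94 with no filter on dim probes. In L2AKO they were 1.70 and 2.00 with normexp and 28.3 and 6.09 with no filter, the lower share was 2.00 in the deposited values, and the higher share 5.10 with median scaling. Between genotypes with LDL 38.4% were lower with no filter. For the response difference they were 1.47 and 2.80 with normexp and 26.4 and 9.57 with no filter, and the lower share was 2.40 with median scaling and 1.94 in the deposited values. The cause was not tested.

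The higher share of all genes past 1.5-fold was 33.7% in WT (43.8% with the percentile over probes above background, 20.9% with normexp) and 42.3% in L2AKO (62.0% with median scaling, 60.1% with that percentile, 54.1% with normexp, 53.7% deposited, 17.7% with no filter). It was 45.1% between genotypes with LDL (61.9% with median scaling, 29.1% with no filter) and 54.5% for the response difference (74.8% with median scaling, 65.7% with normexp, 26.6% with no filter). Median scaling moved the median of all genes by 0.11 in L2AKO with LDL. Other results stayed within the spread in 293 cases and moved past it in 147. The 293 include values that a setting could not move. No paired analysis was possible because each group is 1 array, so no array could be left out either.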

Other observations

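Isozymes of some single steps differed between the lines without LDL, and these values compare each probe only with itself. Of 12 other glycolytic enzymes measured, 3 were at least 1.5-fold higher in L2AKO and 1 lower, where 15.2% and 16.6% of all genes were. The phosphofructokinase subunits Pfkl (-0.17), Pfkm (-0.20) and Pfkp (-0.52) lay on the same side. While Slc2a1 was lower in L2AKO (-0.57), Slc2a3, the neuronal high-affinity transporter, was higher (1.51), reading -3.28 (control) and -2.98 (LDL) in WT and -1.78 (control) and -1.74 (LDL) in L2AKO. The ubiquitous enolase Eno1 differed by 0.15, whereas the neuronal Eno2 was 0.87 and the muscle Eno3 1.34 higher in L2AKO. Aldoc was 1.08 higher where Aldoa differed by 0.01. The heart-type lactate dehydrogenase subunit Ldhb (-0.59) lay on the side of Ldha (-0.64).

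With LDL these differences had the same sign for Slc2a3 (1.24), Eno2 (0.96), Eno3 (1.41) and Ldhb (-0.47), and Aldoc was 2.08 higher in L2AKO. The comparisons without and with LDL share no array, but the second crosses slides.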
